A study of Mus musculus with 2 samples.

Results

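Cxcr6, its ligand gene Cxcl16 and 4 genes tied to the retention of lymphocytes in tissue, Itgae, Cdh1, Cd69 and Itga1, were described across the cells of the mouse adrenal gland at 9 and 6 weeks of age. The members are these 6 of the 32245 gene symbols in the count matrices, taken by name, with no threshold on their values. Both groups were female C57BL/6J mice of the genotype SF1-Cre+;Znrf3 Fx/Fx, in which Cre under the SF1 promoter deletes Znrf3 in steroidogenic cells, so both ages carried the deletion and no mouse with intact Znrf3 was analysed here. The 9-week library pooled 3 adrenals and the 6-week library pooled 2. Nucleated live cells (positive for Vybrant DyeCycle Ruby, negative for DAPI) were sorted after dissociation at 4 °C and run on the 10x Chromium 3' v3.1 platform. The study asked how the immune environment of the gland changes once senescence has been activated, at the passage from hyperplasia at 6 weeks to regression at 9 weeks.

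With 1 library per age there was no replicate, and no test was made between ages. Levels are given as the summed unique molecular identifiers (UMIs, single captured RNA molecules) of a gene per 1000000 UMIs of the cells of a class (CPM), with 95% exact Poisson intervals. Shares of cells carry 95% Clopper-Pearson intervals, and a ratio between ages has an interval made from both counts. These intervals cover counting error only. The age, the pool of animals and the library cannot be told apart.

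CXCR6 is a chemokine receptor of activated and tissue-resident T cells, some NK cells and innate lymphoid cells, and CXCL16 is its ligand. CXCL16 is made as a membrane-anchored protein on macrophages, dendritic cells and some endothelium, from which the proteases ADAM10 and ADAM17 can release it. CD69, CD49a (encoded by Itga1) and CD103 (encoded by Itgae) are the usual surface marks of resident lymphocytes. CD69 draws the egress receptor S1PR1 off the cell surface. CD49a pairs with the beta chain encoded by Itgb1 and binds collagen and laminin, while CD103 pairs with that encoded by Itgb7 and binds E-cadherin, the product of Cdh1. CD103 is also a mark of the cross-presenting dendritic cells called cDC1 in mice.

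Itga1 was the member whose detection differed most between T cells with and without Cxcr6, so the promoter windows of these 2 genes are shown (RefSeq, GRCm38.p6, in which 2 of the 6 genes matched by symbol, 250 bases before to 50 after the start of transcription, 5′ to 3′ on the gene's own strand). Capitals mark the matches to TGNGGT, searched on both strands. This pattern is broader than the RUNX motif, since N admits any base. It was chosen since RUNX3 is a transcription factor of resident T cells. The Cxcr6 window lies at chr9:123806227-123806526 on the plus strand and that of Itga1 at chr13:115101915-115102214 on the minus strand.
Cxcr6: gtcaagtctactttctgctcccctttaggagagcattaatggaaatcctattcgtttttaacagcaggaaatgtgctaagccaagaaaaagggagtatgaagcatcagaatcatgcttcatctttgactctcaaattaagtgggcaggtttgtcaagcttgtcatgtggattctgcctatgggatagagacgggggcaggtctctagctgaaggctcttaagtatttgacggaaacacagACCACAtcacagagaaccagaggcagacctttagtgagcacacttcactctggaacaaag
Itga1: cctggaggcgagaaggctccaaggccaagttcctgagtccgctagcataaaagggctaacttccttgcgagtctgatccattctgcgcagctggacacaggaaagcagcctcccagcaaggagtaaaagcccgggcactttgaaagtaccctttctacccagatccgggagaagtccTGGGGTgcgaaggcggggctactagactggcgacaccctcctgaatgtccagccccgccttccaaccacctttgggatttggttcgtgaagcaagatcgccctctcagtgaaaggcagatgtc
Each window held 1 match to TGNGGT, at bases 241 to 246 for Cxcr6 (reverse strand) and 178 to 183 for Itga1 (forward strand). The letters were ACCACA for Cxcr6 and TGGGGT for Itga1, which differ at the open base once read on the same strand. The windows thus share the broad pattern and not the same letters, and whether TGGGGT serves as a RUNX site was not tested. The T-box motif GGTGTG, which can share letters with the RUNX motif, was in neither. Such matches are common: TGNGGT was in 45.8% of 32851 mouse promoter windows of the same length, and GGTGTG was in 19.0%. A match describes the sequence and not a bound site.

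On the mm10 build (GENCODE M21), Cxcr6 (ENSMUSG00000048521) lies at chr9:123806475-123811760 on the plus strand, wholly inside Fyco1 of the opposite strand. Cxcl16 (ENSMUSG00000018920) is at chr11:70453983-70459984 on the minus strand and shares 552 bases with Zmynd15 of the opposite strand. Itgae (ENSMUSG00000005947), at chr11:73090583-73147446 on the plus strand, holds Haspin on the opposite strand. Cdh1 (ENSMUSG00000000303) is at chr8:106603351-106670246 on the plus strand, Cd69 (ENSMUSG00000030156) at chr6:129267325-129275436 on the minus strand, and Itga1 (ENSMUSG00000042284) at chr13:114953096-115101964 on the minus strand, with Pelo inside it on the same strand. The sources used here do not give the strand setting of the counting, so reads of such overlapping genes may not be separable.

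After filters, 9941 cells of the 9-week library (median 7029 UMIs) and 8133 of the 6-week library (median 11348 UMIs) remained, and 26 of their cell barcodes occurred in both libraries. Cell classes were rebuilt by clustering without the 6 genes and named from marker genes. The T, NK and innate lymphocyte-like class held 1066 cells at 9 weeks and 399 at 6 weeks, with 1743 and 1582 CPM of the T cell receptor gene Trbc2 and 385 and 355 CPM of Cd3e. The macrophage-like class (2241 and 944 cells) carried C1qa at 8452 CPM at 9 weeks and 8077 CPM at 6 weeks, and the cDC1-like class (797 and 149 cells) carried Xcr1 at 832 and 650 CPM. Znrf3 transcripts stood at 54.3 CPM (51.7–56.9) in the 9-week and 45.0 CPM (43.4–46.6) in the 6-week adrenocortical-like cells. Reads near the 3′ end of the gene do not show whether the floxed part, whose position the sources used here do not give, is gone.

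Cxcr6 marked the lymphocytes. In the T, NK and innate lymphocyte-like class it reached 512 CPM (492–532) at 9 weeks and 458 CPM (426–491) at 6 weeks, and 49.8% of these cells at 9 weeks and 57.1% at 6 weeks had at least 1 UMI. B cell-like cells, which lack the receptor's transcript in the main, had 0.895 CPM with 0.301% of cells positive at 9 weeks and no UMI in 135 cells at 6 weeks, which allows a share of cells with a UMI of up to 2.22% by a floor of 3 counts (exact upper bound 2.70%). Median depths were 3928 and 3534 UMIs per lymphocyte, against 2847.5 and 2357 per B cell at 9 and 6 weeks. Macrophage-like, endothelial-like, cDC1-like and adrenocortical-like cells stayed at or under 1.66 CPM at both ages. The lymphocyte class therefore held 79.9% (78.4–81.3) of the 3109 Cxcr6 UMIs at 9 weeks and 91.0% (88.9–92.8) of the 865 at 6 weeks, and most of the others were in clusters left unnamed (16.6% and 7.98%), among them some that mixed T cell and myeloid genes. Lymphocytes were 10.7% of all cells at 9 weeks and 4.91% at 6 weeks.

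Within the lymphocytes the level depended on the subset. CD4 T-like cells carried the most among subsets of at least 30 cells per library, 1058 CPM (1000–1117) in 289 cells at 9 weeks and 755 CPM (679–838) in 129 cells at 6 weeks, with 82.4% and 76.0% of cells positive. CD8 T-like cells had 622 CPM (565–682) at 9 weeks and 594 CPM (469–741) at 6 weeks, intervals that overlap. T/NK-like cells, whose clusters mixed NK receptors and T cell genes, had 544 CPM (486–607) and 575 CPM (499–659), which overlap as well and overlap those of CD8 T-like cells. NK-like cells were far lower, at 15.6 CPM (8.05–27.2) with 2.29% of 218 cells positive at 9 weeks and 9.62 CPM in 40 cells at 6 weeks. The Il7r-positive innate lymphocytes with Il1rl1 and Arg1 were few, and 8 of 12 cells at 9 weeks and 8 of 10 at 6 weeks carried Cxcr6. In order of level, CD4 T-like cells stood above CD8 T-like and T/NK-like cells at 9 weeks, and above T/NK-like cells at 6 weeks, when the intervals of CD4 and CD8 T-like cells overlapped. CD8 T-like and T/NK-like cells did not differ beyond counting error at either age, and the wide interval of the few innate cells (561–1079 at 9 weeks, 580–1183 at 6 weeks) overlapped those of all 3. T-like cells of no CD4 or CD8 call (258 and 186 CPM), NK-like and B cell-like cells came after them. Cluster L3 held 125 of the 289 CD4 T-like cells at 9 weeks, and L2 held 67 of the 129 at 6 weeks. Over both libraries Cd4 was detected in 25.6% of L2 and 44% of L3 cells. It was also detected in 30.8% of L1 and 47.3% of L7 cells, clusters with no CD4 or CD8 call. The leading genes of L2 included Tcrg-C4 and Il4. The CD4 T-like name therefore describes clusters, and most cells of L2 and L3 had no Cd4 UMI.

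**Figure D1:**
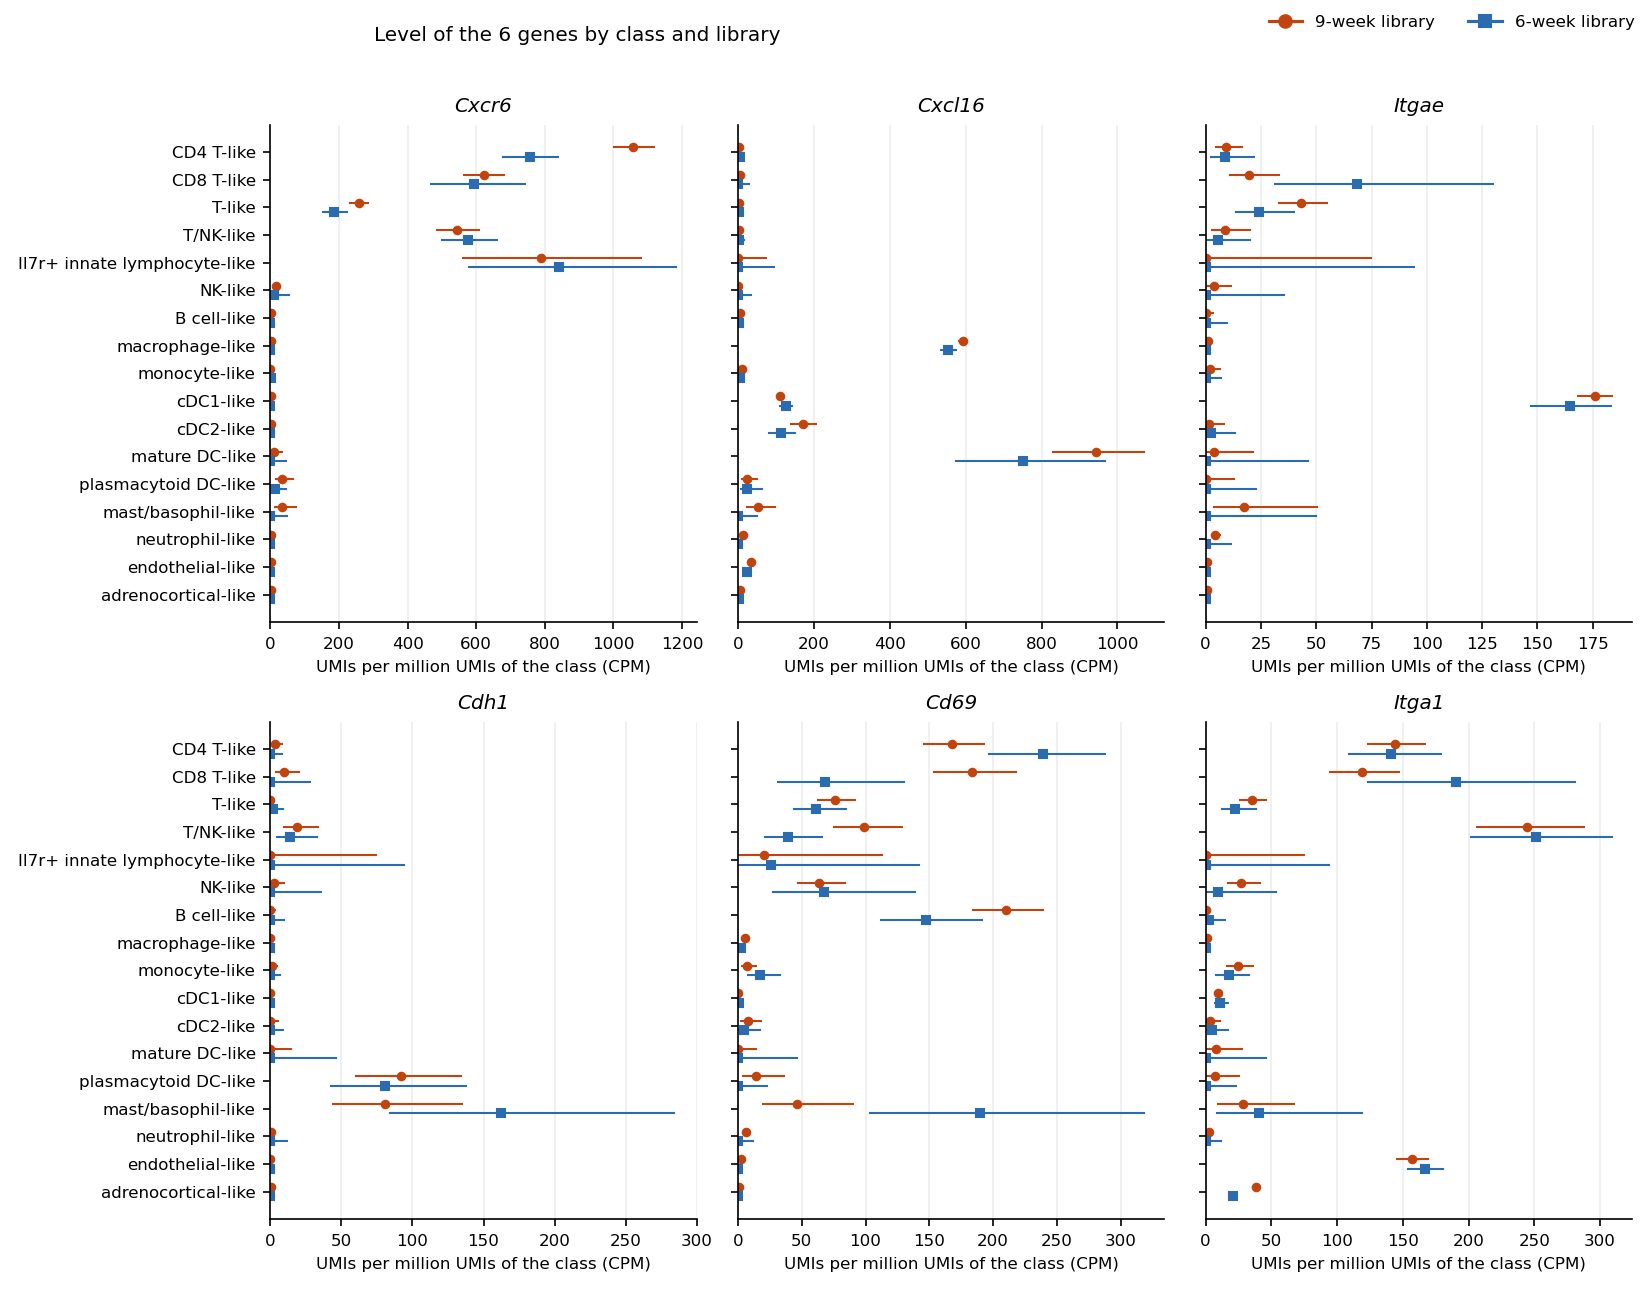
Level of each of the 6 genes by cell class, in CPM on the x axis, with the 9-week library drawn above the 6-week library in each class and bars for 95% exact Poisson intervals. Cxcr6 stood at 1058 CPM in CD4 T-like cells of 9 weeks and 755 CPM in those of 6 weeks and was near 0 in macrophage-like, endothelial-like and adrenocortical-like cells, Cxcl16 stood at 593 and 554 CPM in macrophage-like cells, and Itgae at 176 and 164 CPM in cDC1-like cells.

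The 15 lymphocyte clusters split further. Cxcr6 was at 1292 CPM at 9 weeks and 960 CPM at 6 weeks in CD4 cluster L3 (Gzmk, Socs2), and at 1145 and 878 CPM in CD4 cluster L2 (Socs2, Izumo1r). The Foxp3- and Ikzf2-positive CD4 cluster L10, of regulatory T cell type, had 140 and 107 CPM. Among CD8 clusters, L5 (Gzmk, Cd160) had 897 CPM at 9 weeks and 750 CPM at 6 weeks, and the naive-type cluster L9 (Ccr7, Lef1) had 113 and 34.9 CPM. The naive-type cluster led by Ccr7 was therefore low and these Gzmk clusters high at both ages. Cluster L7, with Cx3cr1, S1pr5 and Klrg1 among its leading genes and no Gzmk, also carried Cxcr6. It had 558 CPM of Cxcr6 and 38.7 CPM of Itga1 over both libraries. The small cluster L15, which carried Ccr10 and gamma T cell receptor transcripts, reached 1044 CPM in 12 cells at 9 weeks and 1153 CPM in 5 cells at 6 weeks.

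The split was as sharp among cells with the NK receptor gene Ncr1. Cluster L4 (Tyrobp, Gzmc, Ncr1) had 805 CPM of Cxcr6 at 9 weeks in 81 cells and 632 CPM at 6 weeks in 63 cells, against 16.9 CPM in 202 cells and 0 UMIs in 24 cells of the circulating-type NK cluster L0 (Gzma, Klra4). Itga1 went with it, at 342 CPM at 9 weeks and 238 CPM at 6 weeks in L4, against 29.5 and 15.5 CPM in L0. Eomes, a transcription factor of conventional NK cells, stood at 5.48 and 34.5 CPM in L4 and at 219 and 233 CPM in L0. S1pr5, an exit receptor of NK cells, stood at 0 and 3.83 CPM in L4 and at 243 and 280 CPM in L0, and Itga2, whose product CD49b marks conventional NK cells, at 27.4 and 15.3 CPM in L4 and 212 and 202 CPM in L0. Xcl1, a chemokine that draws cDC1, stood at 2657 CPM at 9 weeks and 2713 CPM at 6 weeks in L4, and at 125 and 93.2 CPM in L0. Ncr1 was detected in 89.6%, Cd3e in 11.8%, Cd3g in 36.1% and Trdc in 12.5% of L4 cells, so the cluster also held T cell transcripts. The clusters were made from these same cells, so the values describe L4 and are no test of it.

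**Figure D2:**
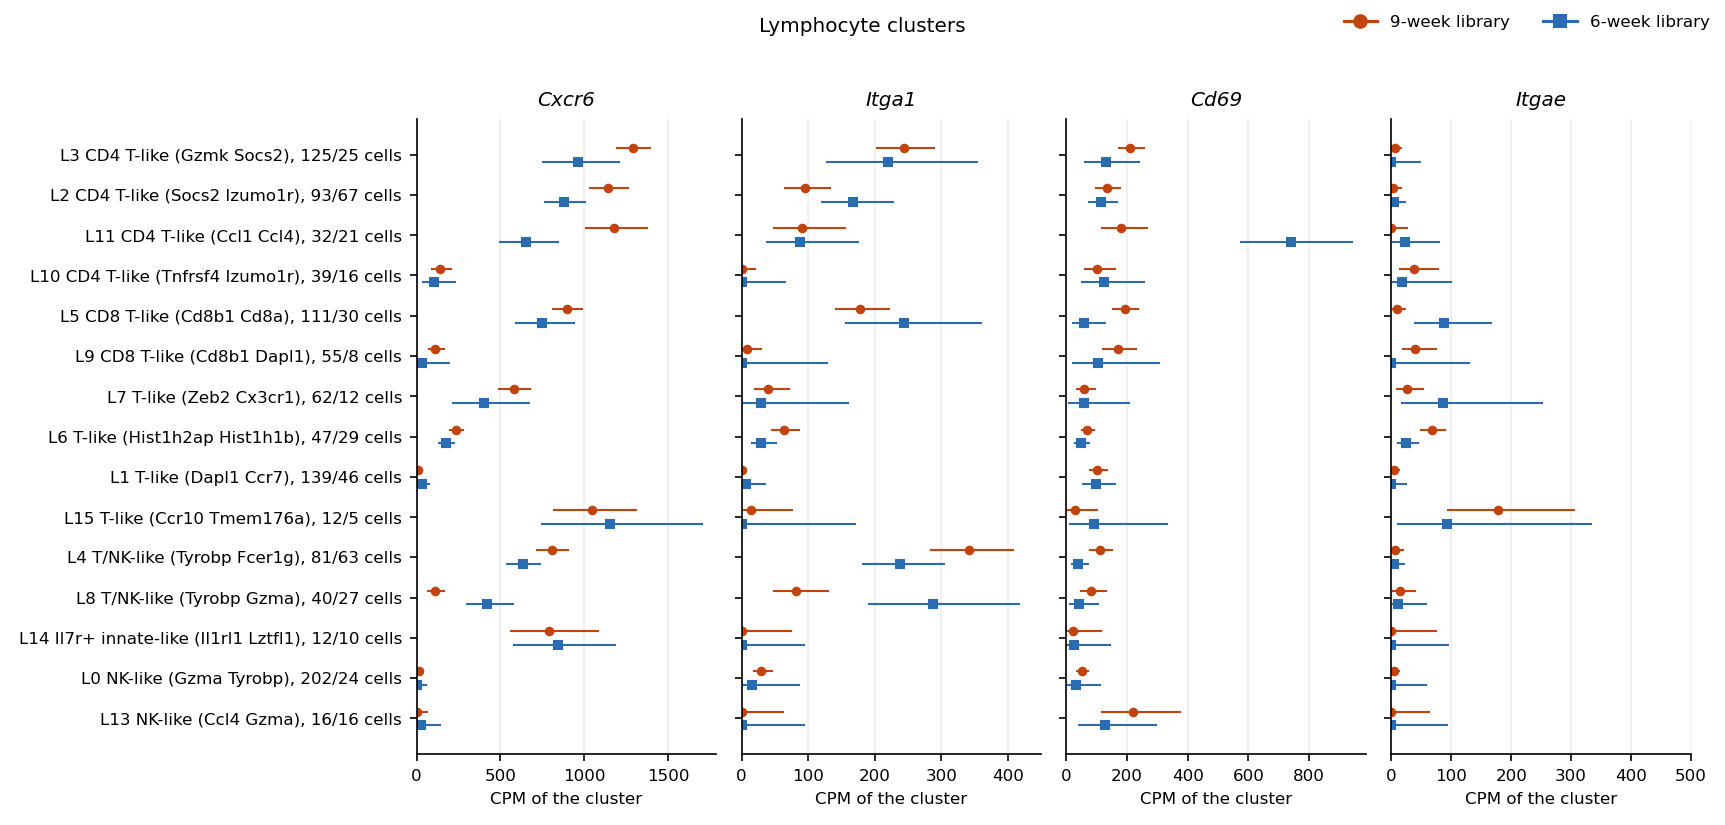
Cxcr6, Itga1, Cd69 and Itgae in CPM in each of 15 lymphocyte clusters, 9-week library above 6-week library, with 95% exact Poisson intervals. Cxcr6 and Itga1 were both high in L4 (805 and 342 CPM at 9 weeks, 632 and 238 CPM at 6 weeks) and L3, and both low in NK cluster L0, while Cd69 in L11 was 181 CPM at 9 weeks and 741 CPM at 6 weeks.

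Between ages, Cxcr6 in the whole lymphocyte class differed by a ratio of 1.12 (1.00–1.25, 9 over 6 weeks). In the CD4 T-like cells the ratio was 1.40 (1.19–1.65) and in the T-like cells of no CD4 or CD8 call 1.39 (1.04–1.85), so the 9-week level was the higher in both beyond counting error. In 2 CD4 clusters the interval lay above 1: L2, at 1.30 (1.03–1.65), and the activated cluster L11 (Ccl1, Ccl4, Tnfrsf9), where 1180 CPM at 9 weeks stood against 652 CPM at 6 weeks (1.81, 1.20–2.76). The T/NK cluster L8 (Gzma, Ncr1) went the other way, with 109 CPM (24 UMIs in 40 cells) at 9 weeks against 422 CPM (41 UMIs in 27 cells) at 6 weeks, a ratio of 0.259 (0.122–0.537). Itga1 moved with it in L8, 81.9 CPM against 288 CPM (0.284, 0.117–0.676). Over the 14 lymphocyte clusters with at least 10 Cxcr6 UMIs, 10 were higher and 4 lower at 9 weeks. The makeup of the class differed too: NK cluster L0 held 202 of 1066 lymphocytes at 9 weeks and 24 of 399 at 6 weeks. Clusters were therefore also weighted alike at both ages, each cluster by its number of cells over both libraries. So weighted, Cxcr6 stood at 550 CPM at 9 weeks and 437 CPM at 6 weeks.

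Cxcl16 was mostly in macrophages. Macrophage-like cells had 593 CPM (581–605) at 9 weeks and 554 CPM (536–573) at 6 weeks, with a UMI in 92.1% and 85.0% of cells, and held 72.9% of the 13657 Cxcl16 UMIs at 9 weeks and 72.4% of the 4588 at 6 weeks. The ratio of levels was 1.07 (1.01–1.13), and thinned to 2000 UMIs per cell the positive share was 67.2% at 9 weeks and 65.2% at 6 weeks. NK-like cells, which should lack the ligand, had no UMI, and lymphocytes had 2.27 CPM (0.844% of cells) at 9 weeks and 2.33 CPM (1.00% of cells) at 6 weeks at median depths of 3928 and 3534 UMIs, against 7117 and 5902 in macrophages.

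Dendritic cells came next. The few mature dendritic cells reached 944 CPM (829–1070) with all 22 of 22 cells positive at 9 weeks and 752 CPM (573–967) in 8 of 9 cells at 6 weeks. The cDC2-like cells had 170 CPM (140–205) and 112 CPM (82.6–149), and cDC1-like cells had 110 CPM (105–117) and 126 CPM (111–143) at 9 and 6 weeks. The intervals of the 9-to-6-week ratio held 1 in mature dendritic cells (0.857–1.87) and in cDC2-like cells (0.939–2.48). Endothelial-like cells carried 33.0 CPM (27.8–38.8) at 9 weeks and 24.9 CPM (20.01–30.7) at 6 weeks, with a UMI in 7.34% and 5.42% of them, and monocyte-like cells carried 13 and 3 UMIs. In order, mature dendritic cells stood above macrophage-like cells at 9 weeks and, by a margin under 1 CPM between the intervals, at 6 weeks. Both stood above cDC2-like and cDC1-like cells, which overlapped each other at 6 weeks, and these stood above endothelial-like, monocyte-like and adrenocortical-like cells (6.08 and 1.64 CPM).

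Every macrophage cluster carried Cxcl16. Of the 19 macrophage clusters, 12 were higher and 7 lower at 9 weeks, and no interval of the ratio lay off 1. Taken over both libraries, 18 clusters lay between 391 CPM in M10 and 830 CPM in M15 (Cxcl10, Cxcl2), and the 16 cells of M21 had 60.6 CPM. The resident-type cluster M0 (Fcrls, F13a1, Cd163) had 446 CPM. It held 24 of 2241 macrophages at 9 weeks and 333 of 944 at 6 weeks, while the largest at 9 weeks, M1, held 262 and 39. With every cluster weighted alike the class stood at 581 CPM at 9 weeks and 580 CPM at 6 weeks.

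The genes of Cxcl16 cleavage were level with it. In macrophages Adam10 had 86.2 CPM at 9 weeks and 87.9 CPM at 6 weeks, and Adam17 had 108 and 106 CPM. Of the 4 measured genes of the cleavage and scavenging list, 0 passed a 1.5-fold difference either way. Of 5 other chemokine genes measured in macrophages, 2 were lower at 9 weeks: Cxcl9, a ligand of CXCR3, at 62.4 CPM against 165 CPM, and Ccl3 at 25.3 CPM against 49.2 CPM. Across all genes measured in the class, 3.66% passed that fold.

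**Figure D3:**
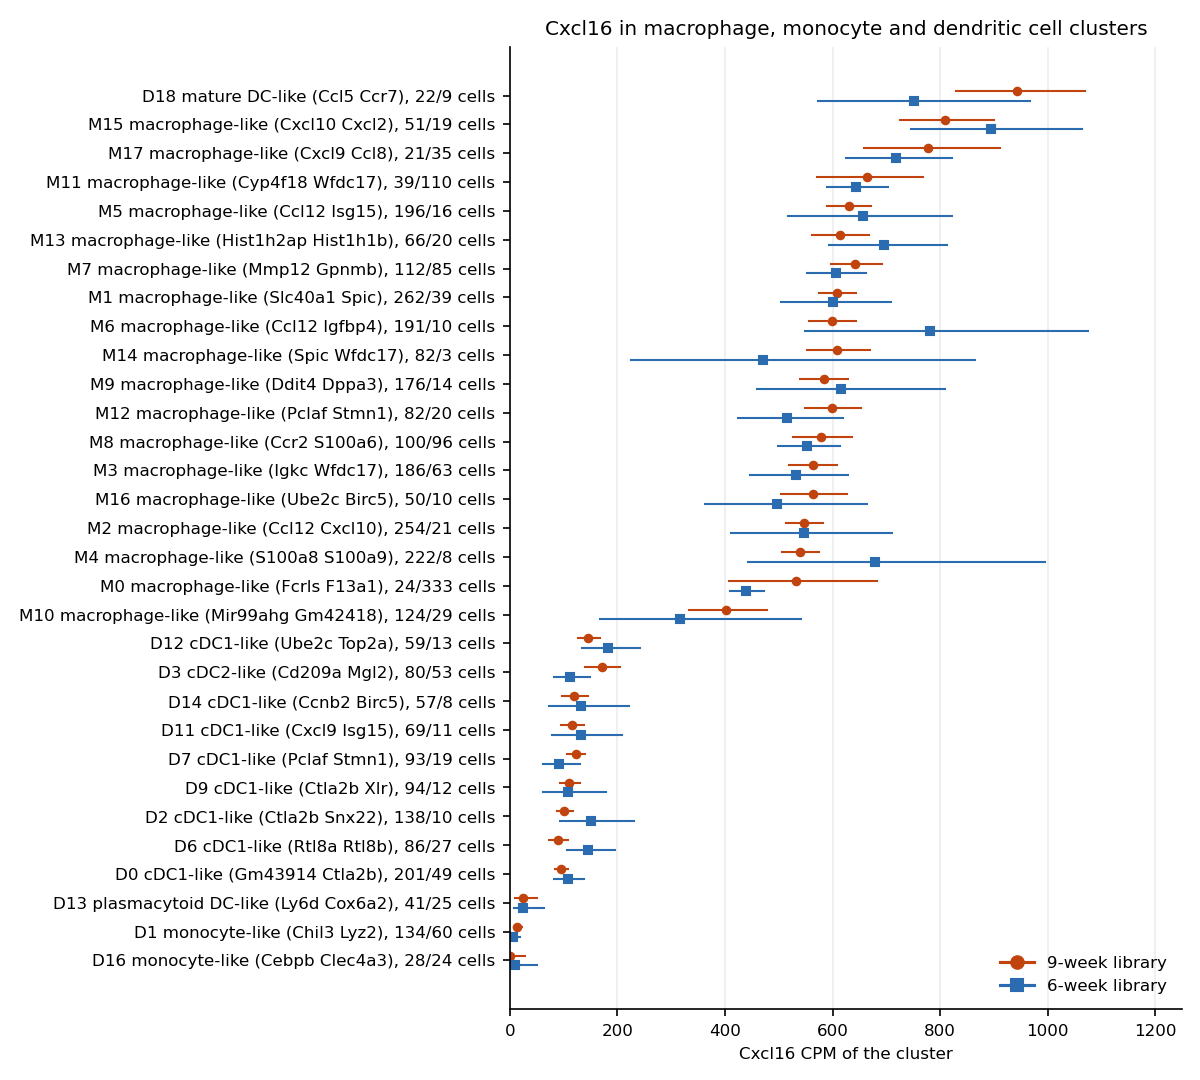
Cxcl16 in CPM in clusters of macrophage-, monocyte- and dendritic-like cells, 9-week library above 6-week library, with 95% exact Poisson intervals. The class stood at 593 CPM at 9 weeks and 554 CPM at 6 weeks, and macrophage clusters M15 and M10 had 830 and 391 CPM over both libraries. The 16 cells of M21 are not drawn.

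Itgae belonged to the cDC1-like cells. They had 176 CPM (168–184) at 9 weeks and 164 CPM (147–183) at 6 weeks, with 79.2% and 75.2% of cells positive, and held 66.5% of its 3171 UMIs at 9 weeks and 64.8% of its 505 UMIs at 6 weeks. The ratio of 1.07 (0.919–1.25) did not leave counting error. Macrophage-like cells had 1.25 and 0.334 CPM and B cells had no UMI in 332 cells at 9 weeks and in 135 at 6 weeks. The partner chain gene Itgb7 stood at 225 CPM at 9 weeks and 186 CPM at 6 weeks in cDC1-like cells. Among 8 cDC1 clusters the interval of the age ratio lay off 1 in D12, at 124 CPM against 59.3 CPM (2.09, 1.09–4.32), and levels there ran between 99.0 CPM in D6 and 241 CPM in D0 at 9 weeks and between 59.3 CPM in D12 and 264 CPM in D11 at 6 weeks.

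Few lymphocytes carried Itgae. The class had 20.4 CPM (16.6–24.8) at 9 weeks and 17.5 CPM (11.8–24.9) at 6 weeks, with 4.50% and 4.51% of cells positive, and held 3.12% and 5.94% of the UMIs. The largest lymphocyte level was in the small Ccr10 cluster L15, at 179 CPM (13 UMIs) at 9 weeks and 92.2 CPM (2 UMIs) at 6 weeks. CD8 cluster L5 had 8.71 CPM (4 UMIs in 111 cells) at 9 weeks and 87.6 CPM (9 UMIs in 30 cells) at 6 weeks, a ratio of 0.0995 (0.0143–0.557), while the cycling cluster L6 had 67.2 CPM (44 UMIs) and 24.6 CPM (10 UMIs), a ratio of 2.73 (1.08–7.64). Those counts are small and each rests on 1 library per age.

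Cdh1, whose product is the ligand of CD103, had few UMIs in the sorted cells. Endothelial-like, B cell-like, cDC1-like and cDC2-like cells had no UMI, and adrenocortical-like cells had 0.128 CPM at 9 weeks and 0.0149 CPM at 6 weeks. Of 81 UMIs at 9 weeks and 41 at 6 weeks, plasmacytoid dendritic-like cells held 32.1% and 31.7%, with 91.8 CPM (59.9–134) in 41 cells and 80.5 CPM (42.8–138) in 25 cells. Cluster C25, with the basophil genes Prss34 and Mcpt8, had 218 CPM (119–366) in 15 cells at 9 weeks and 398 CPM (206–695) in 11 cells at 6 weeks. T/NK-like cells had 11 UMIs (18.8 CPM, 9.39–33.7) at 9 weeks and 5 UMIs (13.96 CPM) at 6 weeks. Among T/NK-like cells with a Cxcr6 UMI, 11.3% of 80 cells at 9 weeks and 6.25% of 64 at 6 weeks also had Cdh1, and among those without one 2.44% of 41 and 3.85% of 26 did.

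Cd69 was spread over lymphocytes and B cells. Lymphocytes had 115 CPM (106–125) at 9 weeks and 105 CPM (90.5–122) at 6 weeks, B cell-like cells 210 CPM (184–239) and 148 CPM (112–191), and the age ratio in B cells was 1.42 (0.963–2.14). Macrophage-like cells had 5.596 and 2.67 CPM. CD8 T-like cells had 184 CPM (153–218) at 9 weeks against 68.5 CPM (31.3–130, 9 UMIs) at 6 weeks, a ratio of 2.68 (1.18–6.96), with 38.6% and 23.7% of cells positive. T/NK-like cells had 99.2 CPM (75.3–128) against 39.1 CPM (21.4–65.6), a ratio of 2.54 (1.15–6.00), with 28.1% and 14.4% positive. In both classes the 9-week level was higher beyond counting error. The T/NK value depended on the cells taken: its log2 ratio of 1.24 was 0.49 with cells of at least 1000 genes and 0.44 at a first clustering resolution of 1.5.

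CD4 T-like cells gave no order for Cd69. Their level was 168 CPM (146–193) at 9 weeks and 239 CPM (197–288) at 6 weeks, while the positive share was 41.2% and 24.0%, so level and share ran opposite ways. Cluster L11 carried the 6-week level: 67 UMIs in 21 cells, 741 CPM, of which 8 cells were positive, against 26 UMIs in 32 cells, 181 CPM, at 9 weeks. Without L11, and without L8, CD4 T-like cells stood at 166 CPM at 9 weeks and 119 CPM at 6 weeks, and lymphocytes at 114 and 71.8 CPM. This removal was not planned. L11 was the cluster whose Cd69 ratio lay below 1 beyond counting error, so a higher ratio without it follows from the choice. Over the 13 lymphocyte clusters with at least 10 Cd69 UMIs, 11 were higher and 2 lower at 9 weeks. The interval of the ratio lay above 1 in 2 of them, L4 and L5, and below 1 in 1, L11.

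Itga1 was shared between lymphocytes, endothelium and adrenal cortex. Endothelial-like cells had 157 CPM (146–169) at 9 weeks and 167 CPM (154–181) at 6 weeks, above the lymphocytes as a whole, which had 98.0 CPM (89.4–107) and 114 CPM (98.6–131). Among lymphocytes T/NK-like cells led, with 245 CPM (206–288) at 9 weeks and 251 CPM (202–309) at 6 weeks and 52.1% and 44.4% of cells positive. CD4 T-like cells had 144 CPM (123–167) and 141 CPM (109–179), and CD8 T-like cells 119 CPM (94.6–147) and 190 CPM (123–281). B cells had 0 UMIs at 9 weeks and 1 at 6 weeks. The regulatory-type cluster L10 and the Il7r-positive innate cells had none at either age, although 790 CPM of Cxcr6 at 9 weeks and 843 CPM at 6 weeks stood in the innate cells.

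The adrenocortical-like cells differed by age. They had 38.3 CPM (36.2–40.6) of Itga1 at 9 weeks against 20.4 CPM (19.4–21.5) at 6 weeks, a ratio of 1.88 (1.68–2.10). A UMI was present in 33.9% and 22.1% of cells, and in 6.77% and 4.13% once each cell was thinned to 2000 UMIs. The same direction held in clusters C2 (21.9 against 13.7 CPM), C3 (32.7 against 22.0 CPM), C4 (23.2 against 19.96 CPM) and C5 (67.4 against 53.3 CPM), and not in C24 (6.96 against 20.2 CPM). C5, the highest, held 675 of 2092 cells at 9 weeks and 471 of 4291 at 6 weeks, and C2, the lowest of these 4, held 164 and 1876. With clusters weighted alike the class stood at 33.4 CPM at 9 weeks and 24.5 CPM at 6 weeks. Of 7 measured collagen and laminin genes, the ligands of CD49a, 2 were past 1.5-fold higher and 1 lower in the same cells, where 11.9% of all genes passed. The lower was Lama4, a laminin chain, at 11.7 CPM at 9 weeks against 32.2 CPM at 6 weeks. Lamb1, a laminin chain, stood at 79.9 CPM against 24.9 CPM and Col4a1, a basement membrane collagen chain, at 200 CPM against 124 CPM. In endothelial-like cells, where 2.63% of genes passed, 2 of 6 were higher, and Lamb1 stood at 47.5 CPM against 18.5 CPM.

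Read against all genes, few of the 6 passed a 1.5-fold difference between ages (log2 of CPM plus 5, for genes with 10 CPM in 1 library and 10 UMIs over both). Lymphocytes had 4 measured members and none passed, where 6.17% of all measured genes did. In adrenocortical-like cells the 1 measured member, Itga1, was past the fold higher at 9 weeks (log2 0.77), where 11.9% of genes passed, and with clusters weighted alike it no longer passed (log2 0.38). None passed of 3 in cDC1-like cells (3.06% of genes), of 1 in macrophages, of 2 in endothelial-like cells (2.63%), of 1 in B cell-like cells (22.8%) and of 1 in cDC2-like cells (24% of genes). In monocyte-like cells Cxcl16 was past the fold higher (13 UMIs at 9 weeks and 3 at 6 weeks) and Cd69 past it lower (8 and 9 UMIs) of 3 measured, where 17.3% of genes passed. Each of these was measured only through the library where it was the higher, and their log2 intervals held 0 (-0.98 to 2.00 and -2.24 to 0.55). Neutrophil-like cells had Cxcl16 at 12.8 CPM (67 UMIs) at 9 weeks and no UMI at 6 weeks, in a class where 59.7% of genes passed and where cluster C14 held 355 of 795 cells at 9 weeks and 1 of 192 at 6 weeks. Here too the gene was measured only through the 9-week library. Its 6-week upper bound was 11.6 CPM, and its log2 interval held 0 (-0.15 to 2.09).

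Itga1 was found more often in T cells with a Cxcr6 UMI than in T cells without one. Of CD4, CD8 and other T-like cells, 438 had a Cxcr6 UMI and 277 had none at 9 weeks, and 155 and 104 at 6 weeks. At 9 weeks 34.2% (29.8–38.9) of the Cxcr6+ cells and 3.97% (2.00–6.99) of the Cxcr6- cells had Itga1. At 6 weeks these shares were 37.4% (29.8–45.5) and 7.69% (3.38–14.6). Median depth was 4266 UMIs in Cxcr6+ and 3812 in Cxcr6- cells at 9 weeks and 3606 and 3285.5 at 6 weeks. Thinned to 2000 UMIs per cell, Itga1 was still in 24.9% and 4.22% at 9 weeks and in 27.7% and 4.10% at 6 weeks. In CD8 T-like cells alone the shares were 36.5% and 5.88% at 9 weeks and 58.3% of 24 and 0 of 14 cells at 6 weeks, and in CD4 T-like cells 37.4% and 11.8% at 9 weeks and 37.8% and 19.4% at 6 weeks.

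Cd69 and Itgae followed Cxcr6 less closely. Cd69 was in 40.6% (36.0–45.4) of Cxcr6+ and 24.9% (19.9–30.4) of Cxcr6- T cells at 9 weeks, and in 27.7% (20.9–35.5) and 23.1% (15.4–32.4) at 6 weeks, where the intervals overlap. Within the CD4 and CD8 classes the Cd69 gap at 9 weeks was smaller, with overlapping intervals: 42.9% (36.5–49.4) of Cxcr6+ and 33.3% (20.8–47.9) of Cxcr6- CD4 T-like cells, and 40.0% (31.0–49.6) and 35.3% (22.4–49.9) of CD8 T-like cells. Thinned to 2000 UMIs the CD4 shares were 27.0% and 27.9%. At 6 weeks, with all UMIs, the shares were 28.6% (19.9–38.6) and 9.68% (2.04–25.8) in CD4 T-like cells. In CD8 T-like cells they ran the other way, at 4 of 24 and 5 of 14 cells. Thinned to 2000 UMIs, the 6-week shares were 24.2% and 13.3% in CD4 T-like cells, and 1 of 16 and 5 of 14 cells in CD8 T-like cells. Itgae was in 5.94% and 5.78% of T cells at 9 weeks, and in 14 cells (9.03%) and 2 cells (1.92%) at 6 weeks. Of all T cells, 21.0% at 9 weeks and 22.4% at 6 weeks had both Cxcr6 and Itga1, 24.9% and 16.6% had both Cxcr6 and Cd69, and 2.38% and 1.16% had both Itgae and Cd69. Cxcr6, Itga1 and Cd69 together were in 11.7% and 6.18%. Most Cxcr6+ T cells of this gland were thus without an Itgae UMI at this depth.

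**Figure D4:**
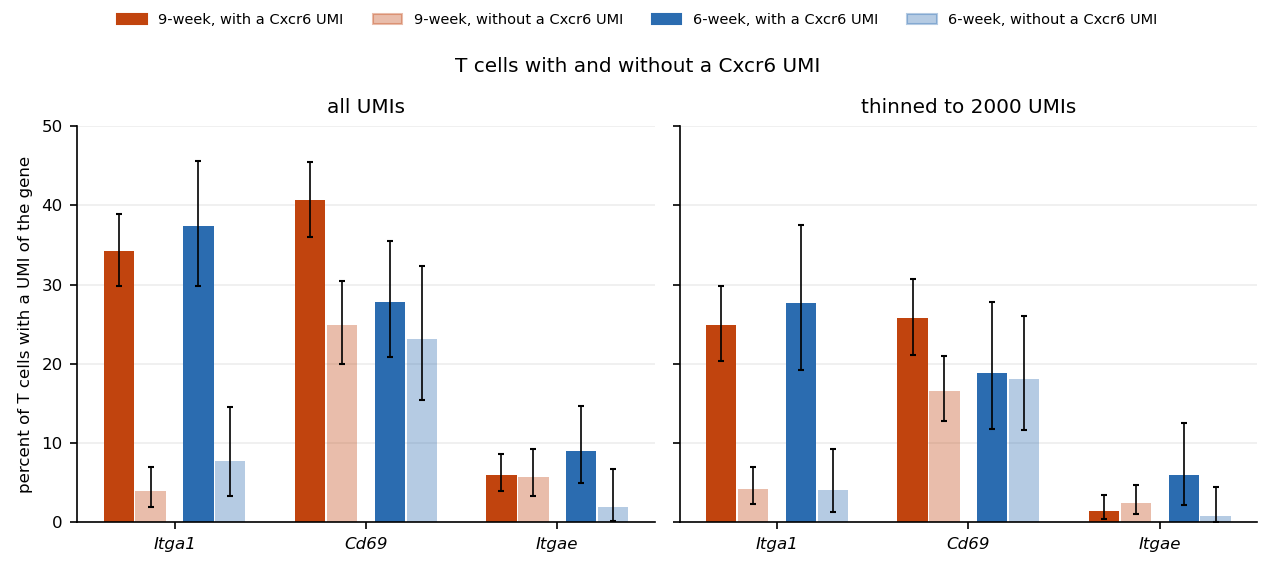
Share of T cells, in percent, with a UMI of Itga1, Cd69 or Itgae among cells with and without a Cxcr6 UMI, at 9 and at 6 weeks, with all UMIs and with each cell thinned to 2000 UMIs, and 95% Clopper-Pearson intervals. Itga1 was in 34.2% of Cxcr6+ and 3.97% of Cxcr6- cells at 9 weeks and in 37.4% and 7.69% at 6 weeks.

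Genes of lymph node homing and egress were lower in the Cxcr6+ T cells. Of 10 measured genes of that list 10 were past 1.5-fold lower at 9 weeks (median log2 difference -1.86), and 8 of 9 at 6 weeks (-1.72), where over all genes 16.8% passed either way at 9 weeks (median 0.14) and 26.6% at 6 weeks (median 0.06). Ccr7, the lymph node homing receptor, had 23.7 CPM in Cxcr6+ and 229 CPM in Cxcr6- cells at 9 weeks, and 11.2 and 137 CPM at 6 weeks. S1pr1, the egress receptor, had 49.6 and 222 CPM at 9 weeks and 28.6 and 106 CPM at 6 weeks. Klf2, the transcription factor that drives S1pr1, had 370 and 1505 CPM at 9 weeks and 279 and 885 CPM at 6 weeks. Tcf7 and Lef1 went the same way at both ages. Naive-type clusters L1 and L9, in which 3.597% and 32.7% of cells at 9 weeks and 6.52% and 12.5% at 6 weeks had a Cxcr6 UMI, lie mainly on the Cxcr6- side, and the split describes that mixture too.

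Molecules linked to residency ran the other way. Of 9 measured, 7 were past 1.5-fold higher in Cxcr6+ T cells at each age (median log2 difference 1.71 at 9 weeks and 0.68 at 6 weeks). Xcl1 had 461 CPM in Cxcr6+ and 65.9 CPM in Cxcr6- cells at 9 weeks and 657 and 55.5 CPM at 6 weeks. Cxcr3, the receptor for Cxcl9 and Cxcl10, had 325 and 107 CPM at 9 weeks and 320 and 147 CPM at 6 weeks. Rgs1, which damps chemokine receptor signalling, had 254 and 74.1 CPM at 9 weeks and 266 and 101 CPM at 6 weeks.

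Of 7 residency transcription factors, 5 were higher in Cxcr6+ cells at 9 weeks, and 2 were higher and 1 lower at 6 weeks. Zfp683, which encodes HOBIT, had 13.4 CPM in Cxcr6+ and 0.823 CPM in Cxcr6- cells at 9 weeks and 31.1 and 4.82 CPM at 6 weeks. It was measured only through the Cxcr6+ cells at both ages, so it could be called only as higher there. Runx3 had 156 and 91.4 CPM at 9 weeks and 124 and 104 CPM at 6 weeks. Among integrin partner chains 3 of 6 were higher at 9 weeks and 2 of 6 at 6 weeks, the second near the share of all genes, since 26.6% passed at 6 weeks and 16.8% at 9 weeks. Itgb1, the partner of Itga1, had 397 and 261 CPM at 9 weeks and 599 and 468 CPM at 6 weeks, and Itgb7, the partner of Itgae, had 274 and 336 CPM at 9 weeks and 210 CPM in both at 6 weeks. Il2rb, a chain of the IL-15 receptor, had 312 and 149 CPM at 9 weeks and 381 and 181 CPM at 6 weeks. Of 8 TGF-beta genes, the input that raises Itgae, 2 were higher and 2 lower at 9 weeks and 1 higher and 3 lower at 6 weeks. Ifng, a product of activated T cells, had 101 and 47.8 CPM at 9 weeks and 71.0 and 16.9 CPM at 6 weeks.

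**Figure D5:**
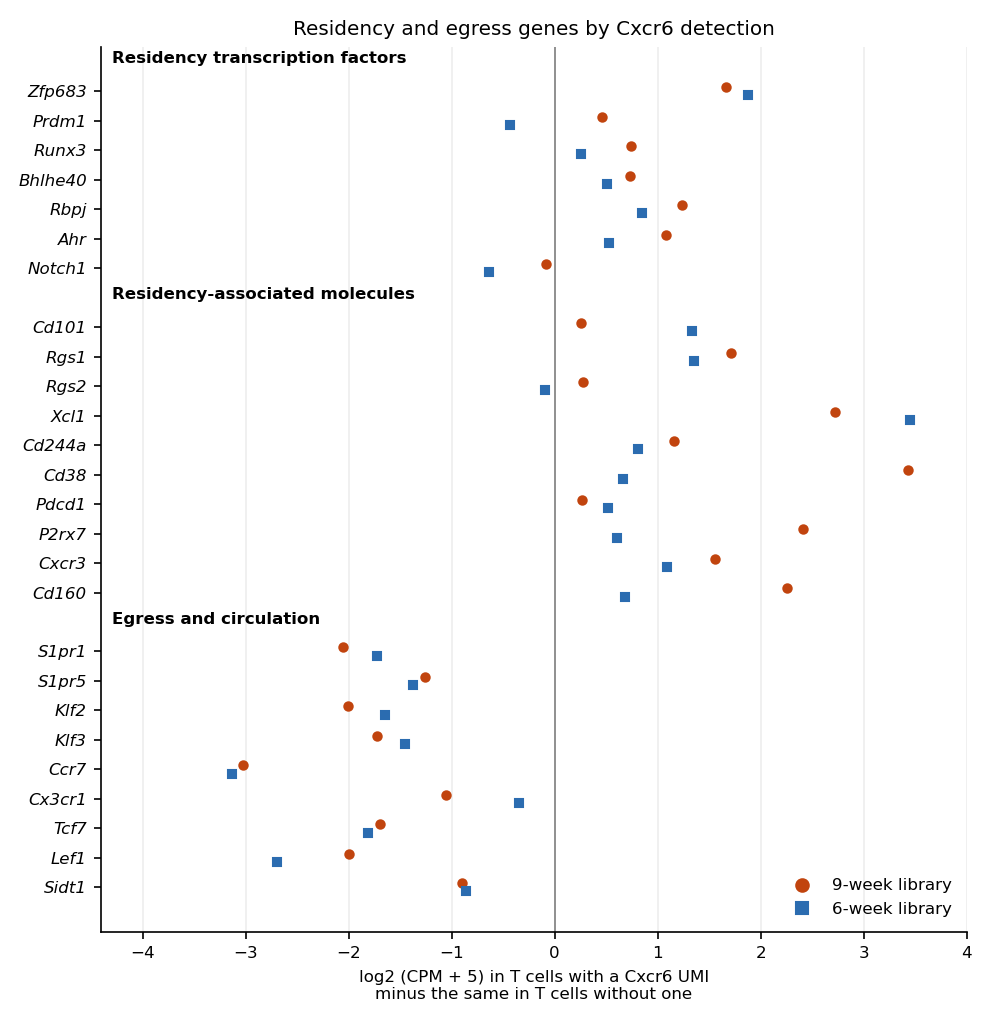
Log2 difference of CPM plus 5 between Cxcr6+ and Cxcr6- T cells for genes of 3 lists, egress and circulation, residency-associated molecules and residency transcription factors, with the 9-week value above the 6-week value. The medians are over the measured genes of each list, 1 of which is not drawn. Egress genes lay at medians of -1.86 at 9 weeks and -1.72 at 6 weeks, and residency-associated molecules at 1.71 and 0.68.

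Between ages the same lists gave another picture in lymphocytes as a whole. Of 10 egress genes 8 were past 1.5-fold higher at 9 weeks (median log2 0.78 beside 0.05 over all genes, of which 6.17% passed), among them Klf2 at 806 CPM against 466 CPM and S1pr5 at 46.7 CPM against 15.7 CPM. With clusters weighted alike at both ages 0 of 10 passed (median 0.25), and NK cluster L0 and naive-type clusters L1 and L9, where these genes are high, held more of the 9-week lymphocytes (202, 139 and 55 of 1066 cells) than of the 6-week ones (24, 46 and 8 of 399). Of 7 residency transcription factors 3 were lower, Zfp683 at 7.62 CPM against 19.8 CPM (measured only through the 6-week library), Rbpj at 59.7 CPM against 92.5 CPM and Ahr by a log2 difference of -0.60, and 1 of 9 residency-associated molecules was lower, Xcl1 at 539 CPM against 991 CPM. With clusters weighted alike, 1 of the 7 factors was higher and 2 were lower, and 0 of the 9 molecules passed. Itga4, the alpha chain of the vascular adhesion integrin VLA-4, was the 1 of 6 partner chains that passed, at 326 CPM against 184 CPM. Of 4 measured genes of Cdh1 partners and its other receptor, 1 was higher, Klrg1, the inhibitory receptor for E-cadherin, at 72.5 CPM against 24.4 CPM, and with clusters weighted alike 0 passed. Of 4 cleavage genes, 7 TGF-beta genes, 4 other chemokines, 8 dissociation stress genes, 5 activation genes and 2 genes of the IL-15 axis that were measured, none passed in lymphocytes.

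Across 22 profiles, 11 classes in each of 2 libraries, the genes whose log2 levels ran most like Cxcr6 were Cd96 (Pearson r = 0.995), Podnl1 (0.994) and Sytl2 (0.991). For Cxcl16 they were Tbxas1 (0.954), Axl (0.929) and Igsf8 (0.911), and for Itgae Timeless (0.844), Sept3 (0.822) and the cDC1 gene Xcr1 (0.820). Cd69 ran with Cd2 (0.958), Gpr174 (0.939) and Ikzf3 (0.939), and Itga1 with F2r (0.883), Ctla2a (0.864) and Ifitm10 (0.863). Cdh1, never above 18.8 CPM in these profiles, ran with the NK receptor gene Klra6 (0.990). The classes where Cdh1 was highest, plasmacytoid dendritic-like and mast and basophil-like cells, had no profile here, and neither had NK-like cells. Between members, Cxcr6 had r = 0.71 with Cd69, 0.67 with Itga1, 0.26 with Itgae and -0.47 with Cxcl16. Profiles of 1 library share its depth and free RNA, and the 2 profiles of a class share its cell type, so these values describe where the genes are high and no more.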

How the data were processed

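Single cells of 2 libraries, 1 per age, were analysed. The deposited values are raw UMI counts per gene and cell, made by the authors with Cell Ranger 6.0.1 on mm10, per the submitters' processing notes, which also name Seurat. The annotation release and strand setting are not given in the sources used here. The 9-week library had 10812 barcodes and 99728879 UMIs, and the 6-week library 8880 and 97001752.

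Barcodes with under 500 genes (221 and 161) or over 25% mitochondrial UMIs (64 and 111) were left out, as were doublets called with Scrublet in scanpy 1.11.5 (586, or 5.57%, and 475, or 5.52%, with 8.42% and 6.89% expected from loading). Cells were clustered together (2000 variable genes without the 6 members, 30 components, 20 neighbours, Leiden resolution 1), then again within groups at 1.5, a value set after seeing the clusters. Classes carry at least 3 markers in 10% of cells at 2-fold, others stay unnamed, and rebuilt names can differ from the study's. Counts were summed per class and library. Folds use log2(CPM + 5) for genes reaching 10 CPM in 1 library and at least 10 UMIs in total, and 1.5-fold is a rule of size, not a test. Classes with 50 cells in each library were compared (9). Named genes are the 6 members, list members and, per member, the genes most like it over class profiles (those with 50 CPM in 1 profile). The members and lists were chosen with earlier results of these data known. Scripts were tested on simulated data. Free RNA, taken from barcodes under 500 genes, was estimated at 0.954% of lymphocyte UMIs at 9 weeks and 0.0469% at 6 weeks, and at most 1.85% in a class (endothelial, 9 weeks). These barcodes (221 and 161) come from the deposited matrices, with no separate set of empty droplets. The share is the lowest ratio over the markers of other lineages, so it can be too low. In B cell cluster C11, for one, C1qa was detected in 7.92% of cells over both libraries. Free RNA was subtracted as an alternative and not in the values given. At such shares the subtraction could move values only slightly, so unchanged values do not show that free RNA had no part. A floor for a count of 0 is 3 counts. A single gene of the egress list is counted in that list and is not reported here by name.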

Additional observations from a re-analysis of the deposited data

Results flagged for a closer look

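Some differences between ages ran opposite ways in related cells, and none of these contrasts was tested, since each age has 1 library. For Cd69 the ratio of 9 over 6 weeks was 2.68 in CD8 T-like cells and 0.702 in CD4 T-like cells, 1.86 apart on the log2 scale, and 2.54 in T/NK-like cells, 1.74 apart from CD4. Between clusters, the Cd69 ratio was 2.86 in L4 and 3.28 in L5, against 0.245 in the activated CD4 cluster L11, which is 3.40 and 3.63 apart. In CD4 T-like cells 5 of 12 settings put the log2 ratio above 0, and without L8 and L11, an unplanned setting, it was 0.46.

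For Cxcr6 the ratio was 1.81 in L11 and 1.30 in L2, against 0.259 in the T/NK cluster L8, 2.75 and 2.28 apart on the log2 scale. L8 held 40 cells at 9 weeks and 27 at 6 weeks and mixed cells with Cd3e (41.8% of cells) and with Ncr1 (59.7%). In it the T cell factor gene Tcf7 had 146 CPM at 9 weeks and 20.6 CPM at 6 weeks, and Tbx21 had 59.2 and 124 CPM. Whether the makeup of L8 moved the Cxcr6 value was not tested. For Itgae the ratio was 2.73 in the cycling cluster L6 and 0.0995 in CD8 cluster L5, 4.04 apart, on 44 and 10 UMIs and on 4 and 9 UMIs at 9 and 6 weeks.

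Cxcr6 also appeared in clusters left out of every class, because genes of T cells and of another type were mixed in them. It stood at 337 CPM in the 44 cells of L12 (362 CPM at 9 weeks and 169 CPM at 6 weeks, with macrophage genes), at 111 CPM in the 107 cells of D8 (112 and 94.7 CPM, with cDC1 genes) and at 47.5 CPM in the 37 cells of M18 (24.6 and 133 CPM, with macrophage genes). Other such clusters were C21, with plasma cell genes, at 81.9 CPM at 9 weeks and 27.2 CPM at 6 weeks (54.9 CPM in its 149 cells), and L16, with endothelial genes, at 447 CPM in 5 cells of the 9-week library. Macrophage-like and cDC1-like cells had under 1 CPM at either age. Their part in the class values was not tested.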

How the results depend on the processing

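Of 278 recomputed values for 52 results, 232 stayed within the stated spread, 46 moved and none reversed among called values. The subtraction of free RNA, which could move values only slightly, is counted among these settings. Direction was checked only for ratios past 1.5-fold. Among smaller log2 ratios, Cd69 in CD4 T-like cells (main -0.50, spread -0.96 to -0.03) changed sign beyond its spread, up to 0.46. Cxcr6 in T/NK-like cells (main -0.08, spread -0.44 to 0.28) did so too, up to 0.35. Others changed sign within their spread. Itgae in lymphocytes ran between -0.27 and 0.22 (log2), and Cxcr6 in CD8 T-like cells between -0.18 and 0.36. On the log2 scale (9 over 6 weeks), Cxcr6 in lymphocytes was 0.16, and 0.33 with clusters weighted alike. Cd69 in lymphocytes was 0.12, and 0.64 in the unplanned setting without L8 and L11. Cxcl16 in macrophages was 0.10, and 0.0032 with clusters weighted alike. Itga1 in adrenocortical-like cells was 0.77, and 0.61 with trimmed mean scaling (TMM shifts that class by 0.16 and neutrophils by -0.39), 0.38 with clusters weighted alike and 0.99 with doublets kept. Thinned to 2000 and 1000 UMIs, the share of lymphocytes with Cxcr6 was 40.8% and 29.9% at 9 weeks and 44.8% and 34.8% at 6 weeks, of macrophages with Cxcl16 67.2% and 42.5% at 9 weeks and 65.2% and 36.1% at 6 weeks, and of cDC1 with Itgae 26.5% and 15.5% at 9 weeks and 29.9% and 16.1% at 6 weeks. With 1000 genes per cell, macrophages with Cxcl16 were 94.7% at 9 weeks and 88.8% at 6 weeks. The Itga1 share in Cxcr6+ over Cxcr6- T cells differed by 30.3 points at 9 weeks and 29.7 at 6 weeks, by 20.6 at 9 weeks when thinned, and by 18.1 and 12.1 when positive from 2 UMIs. Genes past 1.5-fold, with every gene of 1 UMI, were 3382 in B cells, 737 in lymphocytes, 3369 in cDC2, 381 in endothelium and 2252 in monocytes, and with a pseudocount of 1 CPM 798 in lymphocytes, 434 in cDC1 and 419 in endothelium (main counts 488 in lymphocytes, 216 in cDC1 and 234 in endothelium). With every list member of 1 UMI, other chemokines, stress and activation lists had 1 each past the fold, and with clusters weighted alike egress, residency molecules, integrin partners and Cdh1 partners had 0 each and stress 1. Cd69 in CD4 T-like cells ran between -0.60 and 0.46. The cause was not tested. No paired analysis was possible because each age has 1 library. Counts under 10 UMIs limit Cdh1 and the small clusters.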

Other observations

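Basophil-type and stromal cells carried members in few cells. Cd69 in cluster C25, with the basophil genes Prss34 and Mcpt8, stood at 31.2 CPM in 15 cells at 9 weeks and at 464 CPM in 11 cells at 6 weeks, and the mast and basophil class as a whole at 45.9 CPM (8 UMIs) and 190 CPM (14 UMIs), a ratio of 0.242 (0.0623 to 0.872). Itga1 in the mural and stromal cluster C26 stood at 275 CPM (160 to 441) in 11 cells at 9 weeks and at 54.7 CPM in 14 cells at 6 weeks, on 17 and 4 UMIs. Neither class had enough cells for a comparison.

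Cxcl16 was lower at 9 weeks in a pair of unnamed clusters. It stood at 283 CPM at 9 weeks and 442 CPM at 6 weeks in D5 (Cxcl9, Ccl17), a ratio of 0.640 (interval below 1, up to 0.822), and at 127 and 242 CPM in D4 (cycling genes, Prtn3, Elane), a ratio of 0.523 (0.375 to 0.736). Cxcl9 itself was at 14.8 CPM at 9 weeks against 121 CPM at 6 weeks in cDC1-like cells, and at 14.5 CPM at 9 weeks against 42.8 CPM at 6 weeks in endothelial-like cells.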
